A study of Homo sapiens with 8 samples.

Results

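The PCNA peaks of MCF10A and *TUBG*-shRNA-MCF10A cells at 2 h after release from a thymidine block were compared on chromosomes 1 to 22. The MCF10A list held 2312 of these peaks and the *TUBG*-shRNA-MCF10A list held 341, so that 2653 of the 4020 peaks in the 4 PCNA lists of the study were examined. A peak was called common when it and a peak of the other list each had at least 25% of their length in the overlap, and it was called MCF10A-only or *TUBG*-shRNA-MCF10A-only otherwise. MCF10A is a non-tumorigenic epithelial cell line of human breast. *TUBG*-shRNA-MCF10A cells are MCF10A cells stably transfected with a short hairpin RNA against γ-tubulin and selected with zeocin at 100 µg/mL. The labels of the MCF10A cells name neither a transfection nor zeocin, so the hairpin and the selection cannot be told apart here, and whether the transfected cells are 1 clone is not given in the sources used here. Both cell populations were synchronized with 2 rounds of thymidine, and sonicated chromatin was immunoprecipitated with the same antibody to PCNA. Each condition had 2 ChIP libraries, which the authors pooled into 1 peak list against a whole-cell lysate control. The comparison asks where on the chromosomes PCNA was found in both cell populations and where in 1 of them.

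PCNA is a ring-shaped clamp that encircles DNA at the replication fork and holds the DNA polymerases on their template. γ-Tubulin is best known for starting microtubules at the centrosome, and a part of the protein is found in the nucleus. The pericentromere, the DNA that flanks the centromere, is built mostly of repeated sequence, is commonly packed as heterochromatin, and is for the most part copied late in S phase. In the reference genome, many copies of such repeats are represented by few, and short reads from them are hard to place.

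The lists differ in how they were made, and this touches every comparison between them. The shortest autosomal peak was 47 bp in the MCF10A list and 115 bp in the *TUBG*-shRNA-MCF10A list. The median width was 77 bp and 165 bp, and the widest peak was 2156 bp and 713 bp. Under the Poisson model of the peak caller, the median summit held 23 reads over a background of 2.34 reads in the MCF10A list and 83 reads over a background of 32.6 reads in the *TUBG*-shRNA-MCF10A list, where the background is the number of reads expected at the summit from the control. Read numbers and fold enrichments depend on the fragment length used in peak calling, so the strength of a peak is given here as the percentile of its −log10 q-value within its own list. With 1 pooled list per condition, no spread between replicates is known and no test was made. The 95% Wilson intervals cover counting error only, and they are too narrow, since they treat peaks as independent and neighbouring peaks are not. Fewer cells in S phase and less PCNA on the chromatin of each cell cannot be told apart in lists of this kind, and the level of γ-tubulin cannot be checked in them.

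Most PCNA peaks of the *TUBG*-shRNA-MCF10A list were common, whereas most peaks of the MCF10A list were not. In the *TUBG*-shRNA-MCF10A list, 277 of 341 peaks were common (81.2%, 95% Wilson interval 76.7 to 85.0) and 64 were not. In the MCF10A list, 271 of 2312 peaks were common (11.7%, 10.5 to 13.1) and 2041 were MCF10A-only. In base pairs, 56566 bp were covered in both lists, which was 85.7% of the 65978 bp of the *TUBG*-shRNA-MCF10A peaks and 20.2% of the 279854 bp of the MCF10A peaks. The contrast between the lists depended on their length. With 341 *TUBG*-shRNA-MCF10A peaks, mostly in 1-to-1 pairs, most of the 2312 MCF10A peaks could not be common wherever the peaks lay. When the MCF10A list was limited to its 341 strongest peaks, 31.4% of the *TUBG*-shRNA-MCF10A peaks (26.7 to 36.5) and 30.8% of the MCF10A peaks (26.1 to 35.9) were common. Nearly equal shares follow from equal lengths and mostly 1-to-1 pairs. With 50% of both peaks required, the share was 50.7% (45.4 to 56.0). When peaks of a list within 1 kb of each other were joined first, 15.95% of the 163 joined *TUBG*-shRNA-MCF10A regions were common (11.1 to 22.3).

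The common peaks were mostly 1-to-1 matches with nearby summits. Of the 277 common *TUBG*-shRNA-MCF10A peaks, 273 were paired with 1 MCF10A peak and 4 with 2, and of the 271 common MCF10A peaks, 10 were paired with 2 *TUBG*-shRNA-MCF10A peaks. The 281 pairs had a median distance of 31 bp between the summits, and the summits lay within 50 bp of each other in 177 pairs (62.99%). The overlap rule limits both the summit distance and the number of partners. Paired peaks had median widths of 172 bp (*TUBG*-shRNA-MCF10A) and 239 bp (MCF10A). Close summits and few partners therefore follow in part from the definition of common peaks, and how far they do was not tested. The MCF10A peak was the wider one in 206 pairs (73.3%), although the MCF10A list held the narrower peaks as a whole. Strength rank was only weakly shared, with a Spearman rho of 0.16 between the percentiles of the 281 pairs, given as a description because many pairs are neighbours in the same libraries.

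The overlap rule decided the class of 38 peaks that did touch the other list. Of the 64 *TUBG*-shRNA-MCF10A-only peaks, 38 shared at least 1 bp with an MCF10A peak and 26 touched none. Across the 58 touching pairs that failed the 25% rule, the *TUBG*-shRNA-MCF10A peak had a median width of 189 bp and the MCF10A peak of 664.5 bp, so a narrow peak commonly lay within a broad one. At the threshold itself, the peak at chr5:10603-10806 covered 25.2% of an MCF10A peak of 808 bp and was common, and the peak at chr16:46405289-46405546 covered 24.8% of an MCF10A peak of 1041 bp and was not. Of the 2041 MCF10A-only peaks, 29 touched a *TUBG*-shRNA-MCF10A peak.

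The peaks of both lists concentrated near centromeres, and *TUBG*-shRNA-MCF10A-only peaks did so least. A peak was called pericentromeric within 5 Mb of the centromere gap of its chromosome in hg19. By this definition, 213 of the 271 common MCF10A peaks (78.6%, 73.3 to 83.1) and 1495 of the 2041 MCF10A-only peaks (73.2%, 71.3 to 75.1) were pericentromeric. Among *TUBG*-shRNA-MCF10A peaks, 211 of the 277 common (76.2%, 70.8 to 80.8) and 18 of the 64 *TUBG*-shRNA-MCF10A-only peaks (28.1%, 18.6 to 40.1) were. The last share depended on the setting, and was 53.0% with 50% of both peaks required, 52.0% among peaks with q-values up to 1e-10, and 56.8% with the MCF10A list limited to its 341 strongest peaks. When peaks within 1 kb were joined before classing, the order of the classes turned. The pericentromeric shares were then 20.0% of 25 common MCF10A regions, 46.1% of 817 MCF10A-only regions and 81.8% of 137 *TUBG*-shRNA-MCF10A-only regions. The length of joined regions enters these classes through the 25% rule, and its part in the turn was not tested.

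Chromosomes 1, 9 and 16 carry a large block of heterochromatin beside the centromere, which hg19 leaves as a second gap, and peaks at the far edge of that block lie outside the 5 Mb. Within 5 Mb of these gaps and outside the pericentromere as defined, there were 92 MCF10A-only peaks, 40 common MCF10A peaks, 47 common *TUBG*-shRNA-MCF10A peaks and 25 *TUBG*-shRNA-MCF10A-only peaks. When these heterochromatin edges were counted as pericentromere, a definition chosen after the data were seen, the share became 77.8% of MCF10A-only peaks (75.9 to 79.5), 93.4% of common MCF10A peaks (89.7 to 95.8), 93.1% of common *TUBG*-shRNA-MCF10A peaks (89.5 to 95.6) and 67.2% of *TUBG*-shRNA-MCF10A-only peaks (55.0 to 77.4). All 25 *TUBG*-shRNA-MCF10A-only peaks at an edge lay in 1 stretch beside the heterochromatin of chromosome 16.

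**Figure D1:**
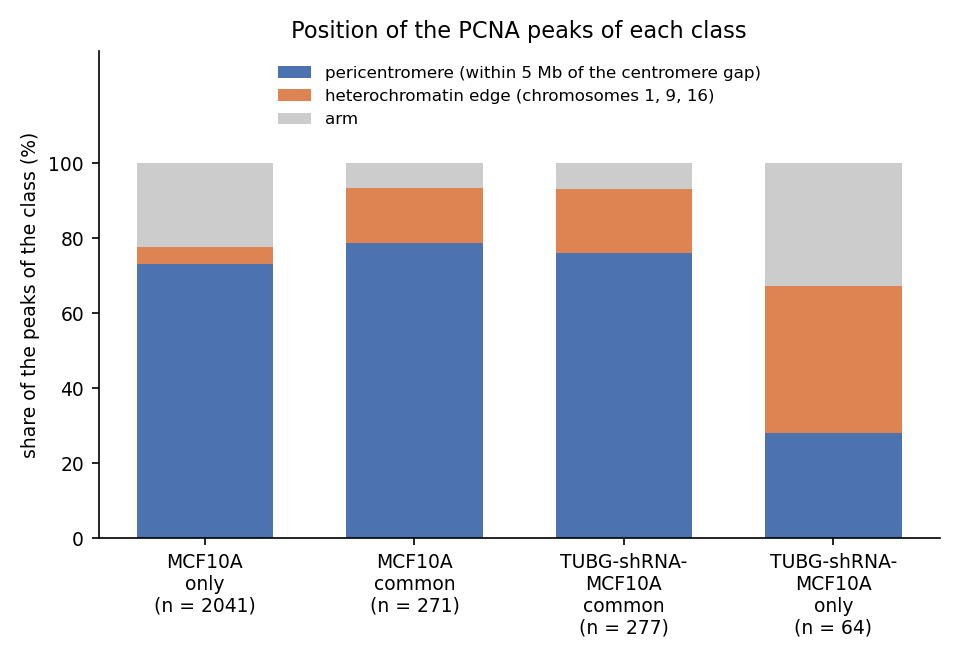
Each bar is a class of PCNA peaks at 2 h, and its height is divided by the share of peaks (%) in the pericentromere, at the heterochromatin edge of chromosomes 1, 9 and 16, and on the arms. Pericentromeric peaks made up 73.2% to 78.6% of the first 3 bars and 28.1% of the *TUBG*-shRNA-MCF10A-only bar, whose 25 edge peaks are its largest share.

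Seen from the other side, the share of common peaks differed by position in both lists. In *TUBG*-shRNA-MCF10A cells, 92.1% of the 229 pericentromeric peaks (87.9 to 94.97), 65.3% of the 72 edge peaks (53.8 to 75.2) and 47.5% of the 40 arm peaks (32.9 to 62.5) were common. In MCF10A cells, the same shares were 12.5% of 1708 (10.99 to 14.1), 30.3% of 132 (23.1 to 38.6) and 3.81% of 472 (2.43 to 5.95). Arm peaks were least often common in both lists. The intervals treat neighbouring peaks as independent, so they cannot show whether positions differ. The MCF10A shares are also bounded by the 229, 72 and 40 *TUBG*-shRNA-MCF10A peaks at these positions.

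Peaks of *TUBG*-shRNA-MCF10A cells were crowded on few chromosomes. Chromosome 4 held 77 of them, chromosome 16 held 72, chromosome 2 held 66, chromosome 10 held 44 and chromosome 8 held 35. These 5 chromosomes together carried 294 of the 341 peaks (86.2%), against 1374 of the 2312 MCF10A peaks (59.4%). The order differed between the lists, as chromosome 10 led the MCF10A list with 407 peaks, followed by chromosome 2 with 327, chromosome 4 with 317, chromosome 16 with 170 and chromosome 8 with 153.

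**Figure D2:**
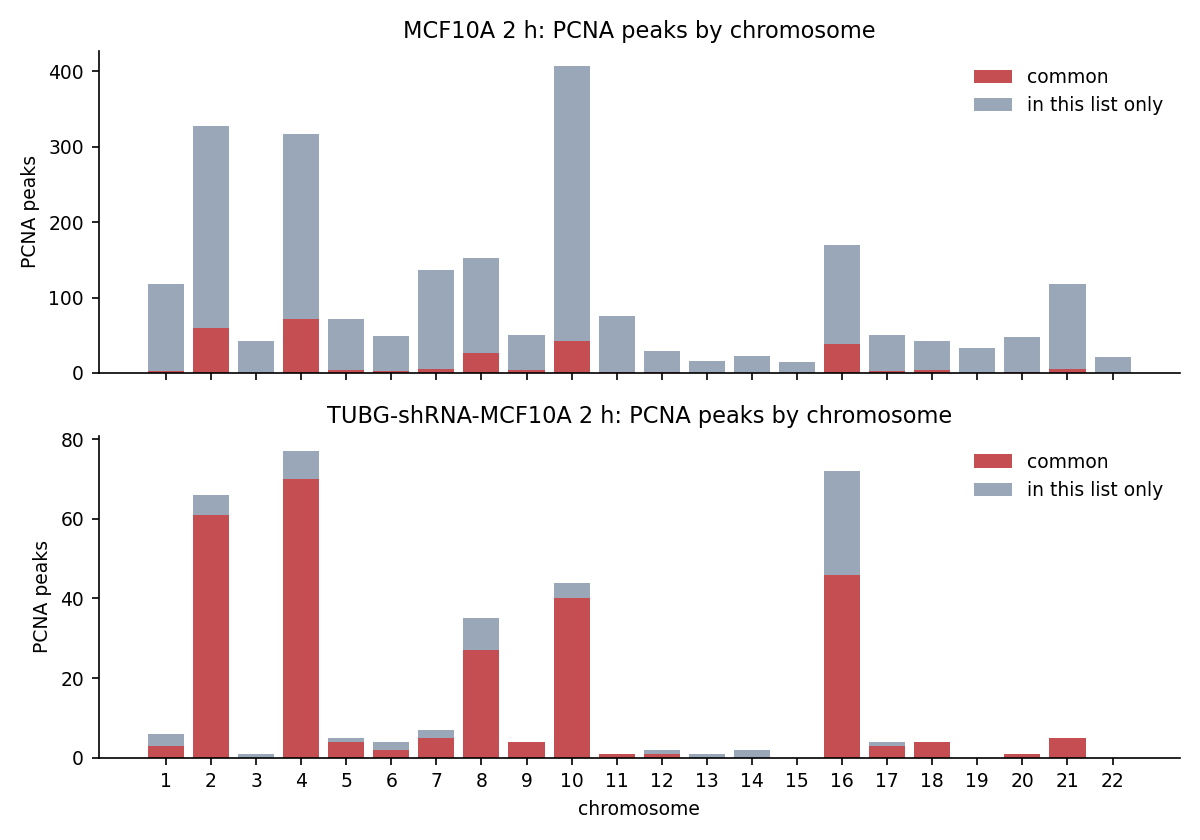
PCNA peaks at 2 h on each of chromosomes 1 to 22 in MCF10A (top) and *TUBG*-shRNA-MCF10A cells (bottom), with common peaks in red and peaks of that list only in grey, on separate vertical scales. Chromosomes 2, 4, 8, 10 and 16 held 294 of the 341 *TUBG*-shRNA-MCF10A peaks, whereas MCF10A peaks were found on every chromosome shown.

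The number of MCF10A peaks for each *TUBG*-shRNA-MCF10A peak varied by chromosome. The ratio was lowest on chromosome 16, 2.36 (95% exact binomial interval 1.78 to 3.16), and stood at 4.12 on chromosome 4 (3.20 to 5.35), 4.37 on chromosome 8 (3.01 to 6.51) and 4.95 on chromosome 2 (3.79 to 6.56). It was 9.25 on chromosome 10 (6.77 to 12.9) and 24.0 over the 5 acrocentric chromosomes (11.9 to 56.4), which carry the ribosomal RNA genes on their short arms and held 192 MCF10A peaks and 8 *TUBG*-shRNA-MCF10A peaks. On chromosome 21 alone, 118 MCF10A peaks faced 5 peaks, all of them common, and 1 stretch of it held 102 of the MCF10A peaks. High ratios were not particular to acrocentric chromosomes. The ratio was 76.0 on chromosome 11, 48.0 on chromosome 20 and 43.0 on chromosome 3, with 1 *TUBG*-shRNA-MCF10A peak each. It was 19.7 on chromosome 1 and 19.4 on chromosome 7. Chromosomes 15, 19 and 22 held 69 MCF10A peaks (2.98% of the list) and 0 of the 341 *TUBG*-shRNA-MCF10A peaks. These 3 were picked because their count was 0, so no limit is put on that share.

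Common peaks were found on 16 of the 22 autosomes. On the chromosomes with most peaks, the common share of *TUBG*-shRNA-MCF10A peaks was 92.4% on chromosome 2 (83.5 to 96.7), 90.9% on chromosome 4 (82.4 to 95.5) and 90.9% on chromosome 10 (78.8 to 96.4). It was 77.1% on chromosome 8 (61.0 to 87.9) and 63.9% on chromosome 16 (52.4 to 74.0). Chromosome 16 therefore held 26 of the 64 *TUBG*-shRNA-MCF10A-only peaks, and 24 of these 26 touched an MCF10A peak.

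When peaks of both lists within 10 kb of each other were joined, 572 stretches were obtained. Only 45 of them held peaks of both lists, and these 45 carried 1399 MCF10A peaks (60.5%) and 323 *TUBG*-shRNA-MCF10A peaks (94.7%). A further 509 stretches held MCF10A peaks alone, 913 peaks in all, and 441 of these stretches were single peaks. The 18 stretches with *TUBG*-shRNA-MCF10A peaks alone were all single peaks, 16 of them on arms and 2 in a pericentromere. Thus 71.4% of the stretches with a *TUBG*-shRNA-MCF10A peak held an MCF10A peak too, and 8.12% of the stretches with an MCF10A peak held a *TUBG*-shRNA-MCF10A peak.

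The 5 stretches with most peaks spanned 297627 bp in all and held 55.1% of the *TUBG*-shRNA-MCF10A peaks and 26.4% of the MCF10A peaks. The stretch with most peaks was chr4:49093269-49158609, 502 kb from the centromere gap, with 197 MCF10A and 52 *TUBG*-shRNA-MCF10A peaks. It held some of the strongest MCF10A peaks, with a median strength percentile of 90.7 in that list and of 62.6 in the *TUBG*-shRNA-MCF10A list. Of its 52 *TUBG*-shRNA-MCF10A peaks, 46 were common, whereas 150 of its 197 MCF10A peaks were not. The stretch chr10:42354965-42409290 held 144 and 34 peaks, with median percentiles of 76.7 and 28.2, and 32 of the 34 were common.

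Chromosome 16 differed from these. In chr16:46385840-46455926, which starts 8.05 Mb from the centromere gap and beyond the heterochromatin gap, 82 MCF10A peaks stood beside 70 *TUBG*-shRNA-MCF10A peaks, a ratio of 1.17. Here the MCF10A peaks were broad, with a median width of 211 bp against 77 bp in the whole list, and the background was high in both lists, 15.8 reads in MCF10A and 103 reads in *TUBG*-shRNA-MCF10A cells. Fold enrichments were low, with medians of 3.40 and 1.82. The median summit here held 60 reads in MCF10A and 193 reads in *TUBG*-shRNA-MCF10A cells. The largest summit anywhere in the lists held 94 and 230 reads. Whether a ceiling on summit reads limited fold enrichment and strength here was not tested. Of the 70 *TUBG*-shRNA-MCF10A peaks, 45 were common and 25 were not, which is more *TUBG*-shRNA-MCF10A-only peaks than in any other stretch.

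**Figure D3:**
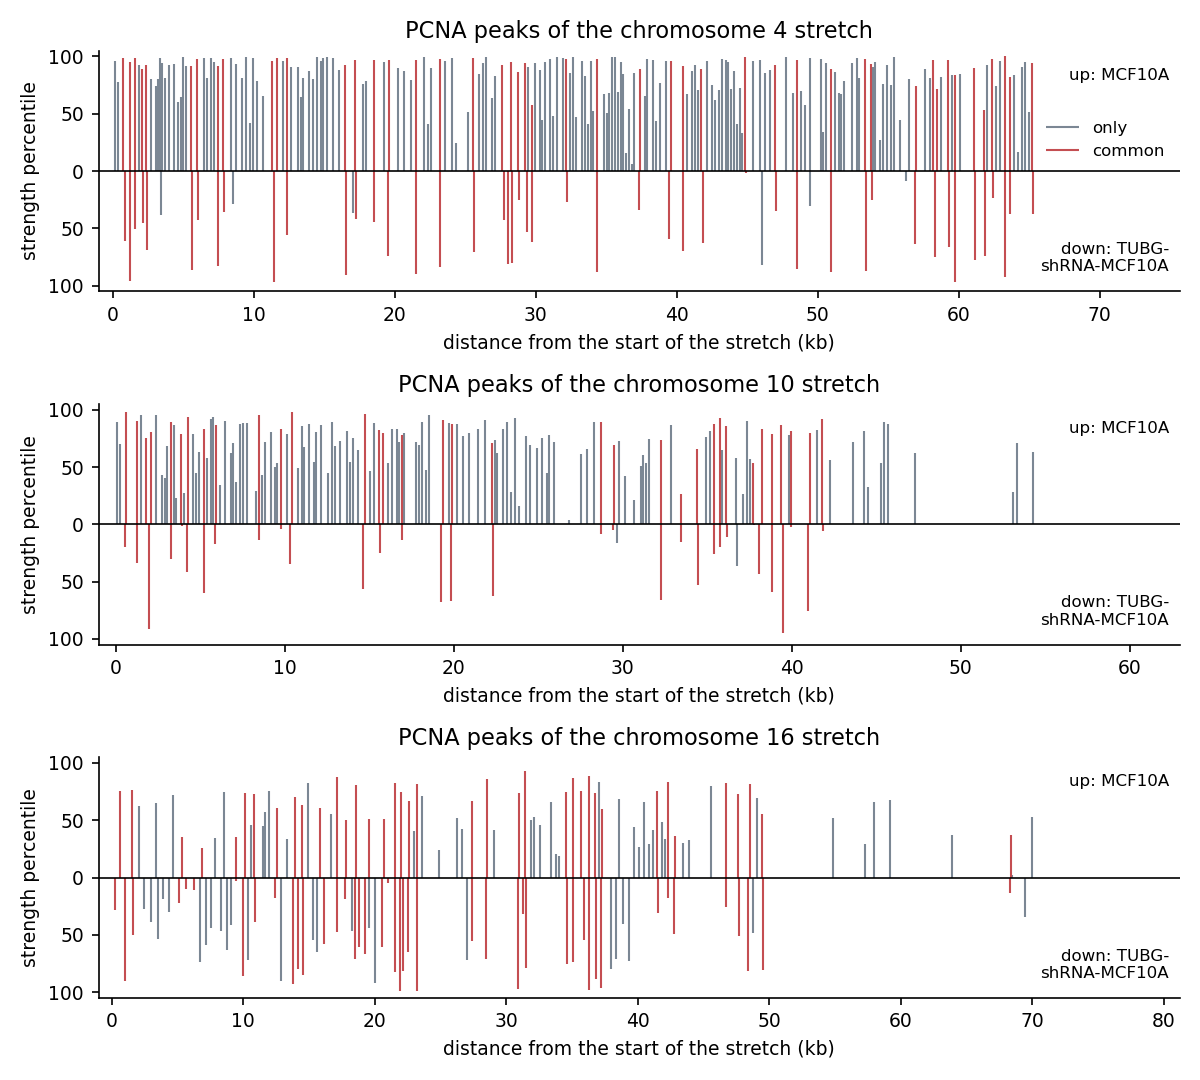
PCNA peaks of the 3 stretches with most peaks, by distance from the start of the stretch (kb). Lines upward are MCF10A peaks and lines downward *TUBG*-shRNA-MCF10A peaks, their length is the strength percentile within the list, and common peaks are red. The chromosome 4 and 10 stretches hold 197 against 52 and 144 against 34 peaks, and the chromosome 16 stretch holds 82 against 70.

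Both remaining stretches of these 5 lay on chromosome 2. In chr2:89830647-89879987 there were 98 MCF10A and 13 *TUBG*-shRNA-MCF10A peaks, and in chr2:92267616-92326147, which reaches the edge of the centromere gap, there were 89 and 19. The next stretch, chr21:10775238-10860622, held 102 MCF10A peaks and 5 *TUBG*-shRNA-MCF10A peaks, a ratio of 20.4. A comparable ratio of 28.7 was found in chr10:39076709-39154305, with 86 and 3 peaks. Dense MCF10A stretches therefore ranged from nearly equal numbers in both lists, on chromosome 16, to few peaks in *TUBG*-shRNA-MCF10A cells.

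Some dense stretches held no *TUBG*-shRNA-MCF10A peak. The 3 with most MCF10A peaks were all in the pericentromere of chromosome 10, namely chr10:38774216-38818746 with 48 peaks, chr10:42790598-42816923 with 38 and chr10:42527534-42546146 with 25. The strongest peak in each reached percentiles 94.98, 84.5 and 74.5 of the MCF10A list. Other such stretches lay near the centromeres of chromosome 11 (24 peaks), chromosome 19 (23 peaks), chromosome 22 (19 peaks) and chromosome 7 (19 peaks). In all, 449 pericentromeric MCF10A peaks were in stretches without a *TUBG*-shRNA-MCF10A peak, against 1259 in stretches with both.

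MCF10A-only peaks differed widely in their distance from the *TUBG*-shRNA-MCF10A peaks. Of the 2041, 575 lay within 1 kb of such a peak, 986 within 10 kb and 1205 within 100 kb, and 665 lay more than 1 Mb from any or on a chromosome without one. Of the 454 MCF10A-only peaks on arms, 408 were in the last set, whereas 904 of the 1495 pericentromeric ones lay within 10 kb.

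Common MCF10A peaks had a close neighbour in their list, of either class, more often than MCF10A-only peaks did. Another MCF10A peak was found within 1 kb of 95.6% of common MCF10A peaks (92.4 to 97.4) and of 69.3% of MCF10A-only peaks (67.2 to 71.2). Such a neighbour was found for 213 of 213 common and 85.9% of MCF10A-only peaks (84.0 to 87.6) in the pericentromere, and for 39 of 40 common and 69.6% of MCF10A-only peaks (59.5 to 78.0) at the heterochromatin edges. On arms, it was found for 7 of 18 common (38.9%, 20.3 to 61.4) and 14.5% of MCF10A-only peaks (11.6 to 18.1), so the common share was the higher one at each position. In the *TUBG*-shRNA-MCF10A list, 71.5% of common peaks (65.9 to 76.5) and 64.1% of *TUBG*-shRNA-MCF10A-only peaks (51.8 to 74.7) had a neighbour of their own list within 1 kb, and these intervals overlapped. The latter share combined 25 of 25 edge peaks, 13 of 18 pericentromeric peaks and 3 of 21 arm peaks. Of the 26 peaks that touched no MCF10A peak, 11.5% had a neighbour (4.003 to 29.0), and with a q-value of at most 1e-10 in both lists 20.0% of 25 *TUBG*-shRNA-MCF10A-only peaks had one.

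Strength separated the classes in the MCF10A list and hardly in the *TUBG*-shRNA-MCF10A list. The median percentile was 77.9 for common and 46.1 for MCF10A-only peaks, with interquartile ranges of 60.3 to 91.7 and 22.3 to 70.3. In *TUBG*-shRNA-MCF10A cells it was 52.2 for common and 40.9 for *TUBG*-shRNA-MCF10A-only peaks, with ranges of 25.1 to 76.5 and 26.7 to 69.1. In the strongest decile of MCF10A peaks, 32.9% were common (27.2 to 39.2), and the share was 22.5% in the next, 8.19% in decile 5 and 2.16% in the weakest (0.924 to 4.94). By quintile of the *TUBG*-shRNA-MCF10A list, from the strongest, it was 88.2%, 82.4%, 80.9%, 70.6% and 84.1%, and the 5 intervals overlapped. When the MCF10A list was limited to its 341 strongest peaks, the median percentile of its common peaks within those was 55.9.

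**Figure D4:**
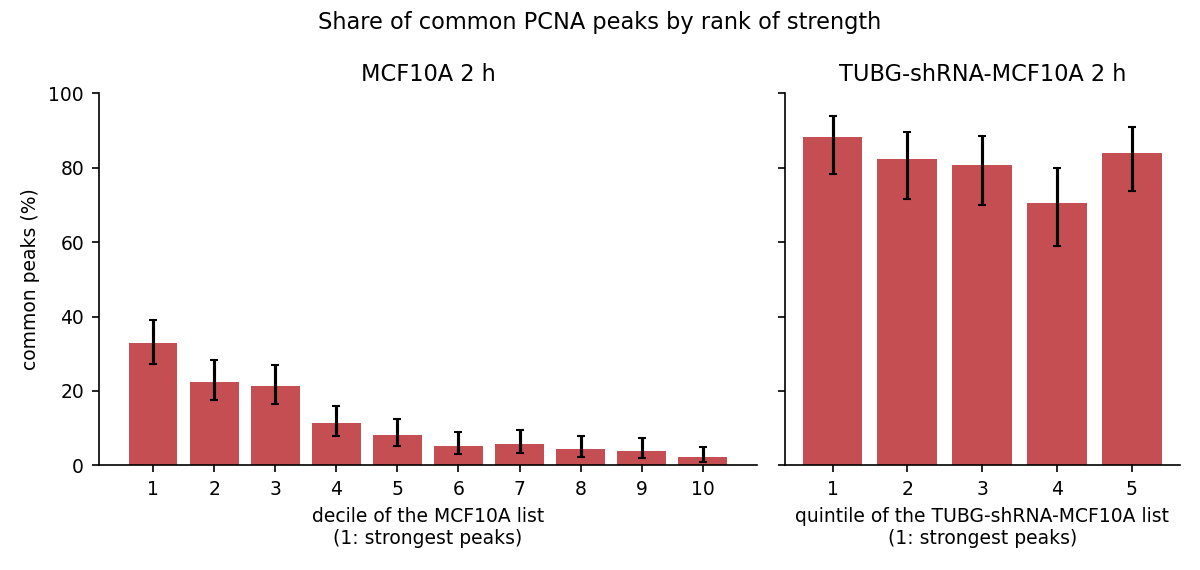
Share of common PCNA peaks (%) in each decile of the MCF10A list and each quintile of the *TUBG*-shRNA-MCF10A list, ranked by −log10 q-value from the strongest (1), with 95% Wilson intervals as bars. The share fell from 32.9% to 2.16% across the MCF10A list and stayed between 70.6% and 88.2% in the *TUBG*-shRNA-MCF10A list.

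Peak width went with the class as well. Of the 1155 MCF10A peaks narrower than the list's median of 77 bp, 1.04% were common (0.595 to 1.81), against 5.11% of the 450 peaks of 77 to 114 bp (3.43 to 7.55), 10.6% of the 293 peaks of 115 to 164 bp (7.55 to 14.6) and 49.5% of the 414 peaks of at least 165 bp (44.7 to 54.3). No peak under 115 bp was listed in *TUBG*-shRNA-MCF10A cells. When each MCF10A peak under 115 bp was widened about its midpoint to that width, 2033 MCF10A peaks remained MCF10A-only, against 2041 as listed. Of the *TUBG*-shRNA-MCF10A peaks, 62 then remained without a common partner, against 64 as listed. Most *TUBG*-shRNA-MCF10A peaks were common before widening, so the counts had little room to change and do not show that width has no part. The part of the fragment length in the larger number of narrow MCF10A peaks was not tested.

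Ranked by −log10 q-value in the *TUBG*-shRNA-MCF10A list, the strongest common peaks were led by chromosome 2. In the MCF10A list, the strongest peak of all, at percentile 100, was a common peak of the chromosome 4 stretch. The peak at chr2:89869751-89870036 had the highest −log10 q-value of the *TUBG*-shRNA-MCF10A list, with 104 summit reads and a fold enrichment of 4.04 over the control, and lay within an MCF10A peak at percentile 95.5 with 58 reads and a fold enrichment of 8.60. The peak at chr4:49104421-49105033 was at percentile 97.1 and its MCF10A partner at percentile 95.7, so both cell populations ranked it high. In contrast, the peak at chr2:92291436-92291563, 35 kb from the centromere gap, stood at percentile 98.5 in *TUBG*-shRNA-MCF10A cells and at percentile 41.2 in MCF10A cells. The other strong common peaks beside that gap, at chr2:92319858-92320003 and chr2:92324072-92324190, had MCF10A partners at percentiles 90.0 and 87.1.

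Common peaks on arms were few, 19 in the *TUBG*-shRNA-MCF10A list, and some were among its strongest. The peak at chr9:72653054-72653445, 22.3 Mb from the centromere gap, was at percentile 99.7, with an MCF10A partner at percentile 90.1, and was found in both 1 h lists. The peak at chr10:10149922-10150086 was at percentile 99.1 with 78 summit reads, and its MCF10A partner at percentile 69.0 with 27 reads. A pair of neighbouring peaks, chr2:109815859-109816005 and chr2:109816065-109816315, both overlapped 1 MCF10A peak of 518 bp at percentile 90.5, which covered 100% and 97.6% of them. Of the 3 strongest common peaks outside the pericentromere, the remaining one, chr16:46409009-46409153, belongs to the heterochromatin edge of chromosome 16, at percentile 99.4 with an MCF10A partner at percentile 81.3.

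Some of the strongest MCF10A-only peaks lay within a few kb of *TUBG*-shRNA-MCF10A peaks, and others lay far from any. Of the 5 strongest in the pericentromere, 4 were in the chromosome 4 stretch, and the nearest *TUBG*-shRNA-MCF10A peak was 1.23 kb away for chr4:49108429-49108513, 1.13 kb for chr4:49128826-49128974, 0.656 kb for chr4:49119682-49119861 and 0.450 kb for chr4:49098184-49098328. Their fold enrichments were between 17.9 and 21.8, over backgrounds of 1.4 to 2.3 reads. The remaining one, chr20:29814109-29814192, had the highest fold enrichment of the list, 27.1, and was 15.2 kb from the nearest *TUBG*-shRNA-MCF10A peak. On arms, the strongest MCF10A-only peak was chr1:726300-726379, with 50 summit reads and a fold enrichment of 12.98, and no *TUBG*-shRNA-MCF10A peak within 34.8 Mb. It was followed by chr1:224199436-224199596, 1.75 kb from such a peak, and chr8:97184382-97184460, 10.4 Mb from one, each with 35 summit reads.

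*TUBG*-shRNA-MCF10A-only peaks fell into 2 sets. The first comprised the 38 peaks that touched an MCF10A peak, 24 of them at the heterochromatin edges and 13 in a pericentromere. Their median background was 86.5 reads and their median fold enrichment 1.87. An example is chr16:46405720-46405936, at percentile 91.8 with 180 summit reads, which covers 20.8% of an MCF10A peak of 1041 bp, and others at this edge are chr16:46398593-46398766, chr16:46423610-46423955 and chr16:46392484-46392669, within MCF10A peaks of 753, 1704 and 1730 bp. The 5 strongest in the pericentromere were of this kind too, and included chr2:92319252-92319453 within an MCF10A peak of 868 bp, chr4:49139268-49139385, chr8:46849083-46849208 and chr8:43826983-43827102. The fifth, chr4:49096479-49096849, was the reverse case, a peak of 371 bp around an MCF10A peak of 79 bp at percentile 98.6.

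The second set comprised the 26 peaks that touched none, of which 20 were on arms, 5 in a pericentromere and 1 at a heterochromatin edge. These stood over a low background, with a median of 6.44 reads, a median fold enrichment of 3.98 and a median of 29.5 summit reads. The strongest on arms were chr6:102782533-102782651, at percentile 95.3 with 45 summit reads and a fold enrichment of 5.88, and chr8:108905474-108905596, at percentile 92.96 with 41 reads and 5.95. The nearest MCF10A peak was 241 kb from the former and 0.843 kb from the latter. Further arm peaks, named after their values were seen, were chr2:156827313-156827492 with 63 reads, chr14:43964709-43964839 with 61 reads and chr13:67602339-67602468 with 38 reads, whose nearest MCF10A peaks were 1.95 Mb, 2.505 Mb and 288 kb away. Of the 26, 13 had no MCF10A peak within 1 Mb.

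The 1 h lists were not used to class the peaks, and common peaks were found in them more often than MCF10A-only peaks. The classes differed in width, however, with medians of 235 bp for common MCF10A peaks and 70 bp for MCF10A-only peaks. No autosomal peak at 1 h was shorter than 112 bp, and the part of width in this contrast was not tested. Of all 2312 MCF10A peaks, 16.3% were matched in the earlier MCF10A list and 7.87% in the earlier *TUBG*-shRNA-MCF10A list. A peak of the MCF10A list at 1 h was matched, at 25% of both peaks, by 158 of the 271 common MCF10A peaks (58.3%, 52.4 to 64.0) and by 220 of the 2041 MCF10A-only peaks (10.8%, 9.51 to 12.2). For the *TUBG*-shRNA-MCF10A list at 1 h, the shares were 43.9% (38.1 to 49.9) and 3.09% (2.42 to 3.93). Behind the last value are 63 MCF10A-only peaks, of which 59 touched no *TUBG*-shRNA-MCF10A peak at 2 h and 4 touched one without reaching 25% of both peaks. Strength went with this too, as 37.4% of the MCF10A-only peaks in the strongest decile of the list and 1.32% of those in the weakest were found in MCF10A cells at 1 h.

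**Figure D5:**
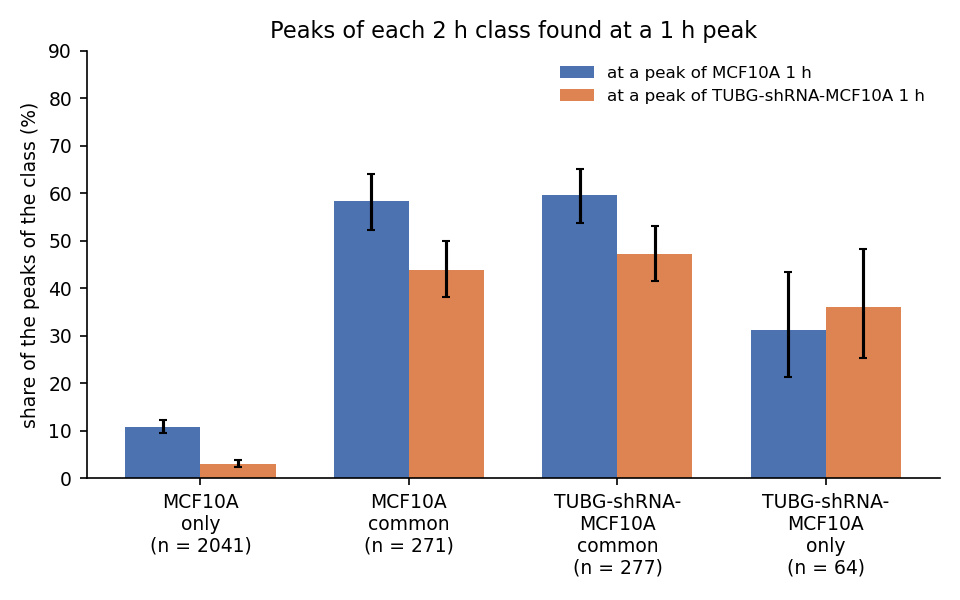
Share (%) of the peaks of each 2 h class that overlapped a peak of the MCF10A (blue) or *TUBG*-shRNA-MCF10A (orange) list at 1 h by at least 25% of both peaks, with 95% Wilson intervals as bars. Common peaks were matched at 43.9% to 59.6%, MCF10A-only peaks at 10.8% and 3.09%.

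In the *TUBG*-shRNA-MCF10A list, 59.6% of common peaks (53.7 to 65.2) lay at an MCF10A peak at 1 h and 47.3% (41.5 to 53.2) at a *TUBG*-shRNA-MCF10A peak at 1 h. The *TUBG*-shRNA-MCF10A-only peaks split by the sets described above. Of the 38 that touched an MCF10A peak at 2 h, 20 were matched in the earlier MCF10A list and 21 in the earlier *TUBG*-shRNA-MCF10A list. Of the 26 that touched none, 0 were matched in the earlier MCF10A list (0%, 0 to 12.9) and 2 in the earlier *TUBG*-shRNA-MCF10A list (7.69%, 2.14 to 24.1). One of these 2 was the arm peak of chromosome 2 named above, chr2:156827313-156827492. In all 4 lists together, 99 of the 341 peaks were found (29.0%), of which 68 were pericentromeric, 27 at a heterochromatin edge and 4 on arms.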

How the data were processed

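PCNA ChIP-seq peak lists of MCF10A and *TUBG*-shRNA-MCF10A cells at 2 h were analysed, with the 1 h lists for reference. According to the submitters' processing notes, Bowtie 1.0.0, MACS2 2.1.1, bedtools 2.17.0 and hg19 were used. The authors pooled both libraries of a condition and deposited, for each peak, its position, the fold enrichment as a ratio over the local background, and the −log10 p-value and −log10 q-value. The number of reads per library is not given in the sources used here. Summit reads and background were solved from the fold enrichment (pseudocount of 1) and the Poisson p-value (tolerance 0.0003 in −log10 p) for 2312 of 2312 and 341 of 341 peaks.

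Overlaps, distances and ranks were computed with pandas 2.3.3, numpy 2.4.6 and scipy 1.17.1 under Python 3.11.15, and figures were drawn with matplotlib 3.10.9. Positions are 1-based on hg19. Centromere and heterochromatin gaps of hg19 were entered by hand, and 0 peaks of the lists lay inside them. Neither gene annotation nor sequence of hg19 was used here, so peaks are described by position. The steps were tested on simulated data. Peaks named are, by −log10 q-value, the 5 strongest in the pericentromere and the 3 strongest outside it in each class, the peaks nearest the overlap threshold, the 5 stretches with most peaks and the 3 without a *TUBG*-shRNA-MCF10A peak with most MCF10A peaks, and others are named as examples after their values were seen. Common peaks were ranked by their *TUBG*-shRNA-MCF10A value when they were named. The classes, lists and rules were chosen with earlier results of these data known.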

Additional observations from a re-analysis of the deposited data

How the results depend on the processing

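No paired analysis was possible because the 2 libraries of a condition were merged into 1 list, and for the same reason no replicate could be left out. Of 91 alternative values, 49 stayed within the counting interval of the reported value, or within 1.5 times a reported number, among them all 20 for chromosomes 1 to 22 and X and for widened MCF10A peaks. The widening could change little, since most *TUBG*-shRNA-MCF10A peaks were already common. Counting heterochromatin edges as pericentromere was chosen after the data were seen. For the values that moved, the cause was not tested unless it follows from the setting. The depth of the libraries limits which weak peaks were called, so PCNA may have been present where a list has no peak.

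With 1 bp of overlap, 92.4% of *TUBG*-shRNA-MCF10A peaks were common and 26 were *TUBG*-shRNA-MCF10A-only, 11.5% of them with a neighbour within 1 kb. With 50% of both peaks, 50.7% were common and 168 were not, of which 53.0% were pericentromeric. With a q-value of at most 1e-05, 79.4% of MCF10A-only peaks were pericentromeric and 75.5% had a neighbour. At 1e-10, 73.7% of *TUBG*-shRNA-MCF10A peaks were common, 930 MCF10A-only and 25 *TUBG*-shRNA-MCF10A-only peaks were left, 85.2% and 52.0% of them pericentromeric and 78.3% and 20.0% with a neighbour, and the median percentile of common MCF10A peaks was 70.1.

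With the MCF10A list limited to its 341 strongest peaks, 31.4% of *TUBG*-shRNA-MCF10A peaks were common, 236 MCF10A and 234 *TUBG*-shRNA-MCF10A peaks were not, 91.4% of common MCF10A, 94.9% of MCF10A-only and 56.8% of *TUBG*-shRNA-MCF10A-only peaks were pericentromeric, and the median percentiles of common peaks were 55.9 (MCF10A) and 58.9 (*TUBG*-shRNA-MCF10A). With peaks within 1 kb joined, 15.95% of *TUBG*-shRNA-MCF10A regions were common, 817 MCF10A and 137 *TUBG*-shRNA-MCF10A regions were not, and the pericentromeric shares were 20.0% (common MCF10A), 46.1% (MCF10A-only) and 81.8% (*TUBG*-shRNA-MCF10A-only), so the order of the classes turned. The median percentiles were 84.4 and 44.5, and joining leaves 0% with a neighbour within 1 kb by construction.

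A pericentromere of 2 Mb held 67.5% of MCF10A-only peaks. One of 10 Mb held 92.6% of common MCF10A, 76.9% of MCF10A-only and 67.2% of *TUBG*-shRNA-MCF10A-only peaks, and counting heterochromatin edges gave 93.4%, 77.8% and 67.2%. A neighbour within 10 kb was found for 78.3% of MCF10A-only peaks.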
